A study of Mus musculus with 7 samples.

Results

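The 10 genes described here encode the inducible parts of the machinery that turns intracellular proteins into peptides for MHC class I molecules. They were chosen by name from the deposited count table: the immunoproteasome subunits Psmb8, Psmb9 and Psmb10, the proteasome activator subunits Psme1 and Psme2, the peptide transporter Tap1 and Tap2, the loading chaperones Tapbp and Tapbpl, and the trimming peptidase Erap1. All 10 were found among the 28786 genes of the table and all 10 passed the filter on low counts, which kept 14226 genes. The libraries were made from cells sorted as haematopoietic stem cells (HSCs), 1500 per library, from the bone marrow of mice aged 6 to 8 weeks. The labels name one group after MC38, a mouse colon carcinoma line, in C57BL/6J mice (4 libraries), and the other simply control (3 columns, of which 2 were used here). The series title links interferon gamma to this setting. The labels do not give the tumour site, its duration, the sex of the mice, the sort gates, the strain of the controls or whether each library had its own mouse. The tests therefore rest on library-to-library variation, and part of it may be technical.

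The proteasome degrades ubiquitinated proteins in a barrel-shaped core whose catalytic sites lie inside. Interferon gamma is known to induce Psmb8, Psmb9 and Psmb10, which replace the constitutive subunits encoded by Psmb5, Psmb6 and Psmb7 in newly assembled cores, and to induce the PA28 activator formed by Psme1 and Psme2. The peptides then pass into the endoplasmic reticulum through the Tap1-Tap2 transporter, are shortened there by Erap1, and are loaded onto class I molecules with the help of tapasin (Tapbp) and its relative Tapbpl. Haematopoietic cells are known to express many of these genes without added interferon.

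The 4 MC38 libraries held 13368238 to 17657037 counts and control libraries 1 and 2 held 12131546 and 12306066. Control column 3 was not used, since for the members its count was 0.349 to 0.362 times the sum of the other controls, with a median of 0.353 over all genes with a sum of at least 200. Its share of the column total lay between those of controls 1 and 2 for all 10 members and for 91.4% of tested genes. All 12 stem and progenitor markers checked had counts, and they summed to 1859.6 to 2082 CPM (CPM being read counts scaled to a common library size after TMM normalisation) in MC38 libraries and 1954.5 and 2125 CPM in controls. The 8 neutrophil markers were also detected and summed to 53486 to 60911 CPM in MC38 libraries and 27696.5 and 27947 CPM in controls, and 7 of the 8 were called higher in MC38. Bulk libraries cannot tell fewer cells of a type from less RNA per cell.

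Promoter sequence is shown first for some of the members, and its relation to the values was not tested. RefSeq windows on GRCm38.p6, from 250 bases before to 50 bases after the annotated start, were present for 8 of the 10 members. They were searched on both strands for the core of an interferon-stimulated response element, taken as GAAA, any 2 bases, GAAA, and for a gamma-activated sequence, TTCNNNGAA; the patterns differ and no match of one overlapped a match of the other. The first was present in 2 of the 8 members, Psme1 and Erap1, against 3.99% of 27025 genes with a window, and the second in 1, Psmb8, against 9.55%. In the following windows capitals mark these matches, except for Tap1. The Psme1 window (chr14:55578244-55578543, plus strand) holds its match at 9, the Erap1 window (chr13:74639603-74639902, plus strand) at -4 and the Psmb8 window (chr17:34197945-34198244, plus strand) at -97, counted to the first base of the match from 0 at the start base. In Psme1 and Erap1 the pattern lies on the opposite strand, so the capitals show its reverse complement.
Psme1: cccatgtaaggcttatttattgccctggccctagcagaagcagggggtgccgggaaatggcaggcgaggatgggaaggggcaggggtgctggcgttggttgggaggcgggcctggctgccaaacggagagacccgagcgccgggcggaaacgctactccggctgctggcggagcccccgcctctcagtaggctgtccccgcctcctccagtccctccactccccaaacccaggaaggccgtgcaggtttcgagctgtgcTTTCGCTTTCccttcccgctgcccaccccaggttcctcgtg
Erap1: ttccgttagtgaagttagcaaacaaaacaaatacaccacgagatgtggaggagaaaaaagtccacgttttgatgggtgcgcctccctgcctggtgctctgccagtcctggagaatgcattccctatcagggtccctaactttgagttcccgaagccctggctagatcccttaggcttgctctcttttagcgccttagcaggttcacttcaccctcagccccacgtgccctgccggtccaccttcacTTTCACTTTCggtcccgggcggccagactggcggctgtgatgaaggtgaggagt
Psmb8: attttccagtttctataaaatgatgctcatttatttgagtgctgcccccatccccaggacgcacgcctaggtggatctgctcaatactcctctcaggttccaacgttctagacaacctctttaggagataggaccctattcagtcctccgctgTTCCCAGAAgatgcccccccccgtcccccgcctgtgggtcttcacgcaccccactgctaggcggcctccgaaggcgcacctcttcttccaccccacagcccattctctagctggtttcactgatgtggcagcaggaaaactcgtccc
The Tap1 window (chr17:34187306-34187605, plus strand) is shown because it is also the promoter of Psmb9, which is transcribed in the opposite direction. The windows of the pair share 275 bases, and the 2 capitals mark the start base of Psmb9 (the first capital) and that of Tap1, 226 bases apart. It held neither pattern.
Tap1: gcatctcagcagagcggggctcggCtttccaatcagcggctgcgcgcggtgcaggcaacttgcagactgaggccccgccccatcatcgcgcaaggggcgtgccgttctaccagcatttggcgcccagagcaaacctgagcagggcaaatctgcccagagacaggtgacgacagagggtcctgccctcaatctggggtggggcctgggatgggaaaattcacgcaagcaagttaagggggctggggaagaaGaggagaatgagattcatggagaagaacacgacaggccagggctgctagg
A match is a string of letters and not a binding site, and no match says only that these letters are not in the window.

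In tumour-bearing mice none of the 10 members was called higher or lower. All 10 had a negative log2 fold change for MC38 minus control, between -0.53 (Psmb10) and -0.13 (Tap1), with a median of -0.22 against 0.01 over all genes tested. Negative values were found for 49.1% of all tested genes. The edgeR quasi-likelihood test, with Benjamini-Hochberg adjustment over all 14226 genes, called 0 of 10 members higher and 0 of 10 lower, against 1.04% and 0.569% of all genes. At an unadjusted edgeR p under 0.05 there were 2 members, Psmb10 and Psme1, against 17.5% of all genes. DESeq2 and limma-voom also called 0 of 10, where they called 7.18% and 1.13% of all genes. A missed threshold does not show equal levels. The upper 95% bounds of the 10 folds ran from 0.891 to 1.23. They are unadjusted for the number of genes and rest on 2 controls, so they set no firm limit on a rise. Without control replicate 1 the highest upper bound was 1.48.

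**Figure D1:**
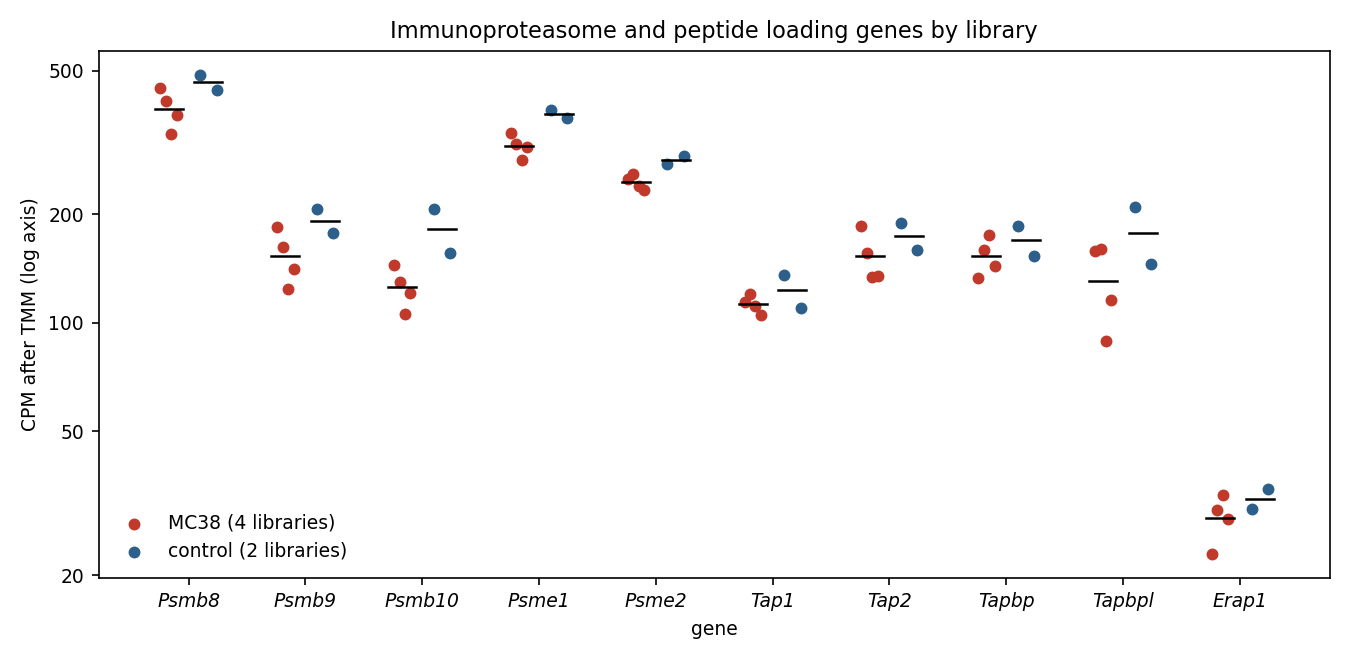
CPM after TMM on a log axis for the 10 members, with a point per library and a line at the group mean, MC38 in red and control in blue. The 4 MC38 points lie below both control points for Psmb10, Psme1 and Psme2, and the groups overlap for the other 7 genes.

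The catalytic subunits of the immunoproteasome were well expressed in both groups. Psmb8 (ENSMUSG00000024338, chr17:34197721-34201454), the chymotrypsin-like subunit also called LMP7, was at 448, 412, 333 and 377 CPM in MC38 libraries 1 to 4 and at 487 and 442 CPM in controls 1 and 2. The groups overlapped, since MC38 library 1 lay between the controls, and MC38 library 3 was the lowest of all. The estimate for Psmb8 was -0.24 on the log2 scale (SE 0.13, edgeR adjusted p = 0.388), a fold of 0.845 with a 95% interval of 0.685 to 1.04.

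Psmb9 (ENSMUSG00000096727, chr17:34181987-34187764), the LMP2 subunit, had 184, 162, 124 and 141 CPM in MC38 libraries and 207 and 177 CPM in controls. MC38 library 1 again exceeded control 2 and library 3 was again lowest. The fold of Psmb9 was 0.796 (95% interval 0.617 to 1.03, edgeR adjusted p = 0.335).

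Psmb10 (ENSMUSG00000031897, chr8:105935735-105938444), the trypsin-like MECL-1 subunit, showed the largest difference of the 10. Its values were 145, 130, 106 and 121 CPM in MC38 libraries and 207 and 156 CPM in controls, so every MC38 library lay below both controls, by little for the nearest pair. The log2 fold change of Psmb10 was -0.53 (SE 0.16, 95% interval -0.89 to -0.17, edgeR adjusted p = 0.137). DESeq2 gave an adjusted p of 0.0514 for Psmb10 and limma-voom 0.165. With column 3 counted as a further control the edgeR adjusted p of Psmb10 was 0.0347, the single call of a member in 16 alternatives, where 4.81% of genes were called lower. Without control replicate 1 it was 0.612.

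The activator subunits kept a narrow range within each group. Psme1 (ENSMUSG00000022216, chr14:55578123-55581529), which encodes PA28 alpha, was at 335, 313, 283 and 307 CPM in MC38 libraries and 390 and 369 CPM in controls. Psme2 (ENSMUSG00000079197, chr14:55587441-55591113), which encodes PA28 beta, was at 251, 258, 239 and 234 CPM in MC38 libraries and 275 and 290 CPM in controls. For both genes every MC38 library lay below both controls. The folds were 0.816 for Psme1 (95% interval 0.686 to 0.97, edgeR adjusted p = 0.219) and 0.869 for Psme2 (0.736 to 1.03, edgeR adjusted p = 0.366). With Psmb10 they made 3 of 10 members below both controls in every MC38 library, against 15.0% of all tested genes.

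Counts of Psme2 may be shared with Psme2b, an intronless copy on chromosome 11, because how reads of near-identical copies were counted is not given. Psme2b was at 12.8, 13.1, 13.2 and 15.5 CPM in MC38 libraries and 11.4 and 11.8 CPM in controls. All MC38 libraries lay above both controls, and the fold of Psme2b was 1.18 (edgeR adjusted p = 0.722).

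The groups overlapped for both transporter subunits, and neither was called. Tap1 (ENSMUSG00000037321, chr17:34187553-34197225) was at 114, 120, 111 and 105 CPM in MC38 libraries and 136 and 110 CPM in controls, and 3 of the 4 MC38 libraries lay between the controls. Tap2 (ENSMUSG00000024339, chr17:34203527-34216321) was at 186, 156, 134 and 135 CPM in MC38 libraries and 189 and 159 CPM in controls, also overlapping. Their folds were 0.914 (95% interval 0.742 to 1.13, edgeR adjusted p = 0.674) and 0.881 (0.689 to 1.13, edgeR adjusted p = 0.608). Tap1 was the single member whose direction turned in an alternative, to 0.03 on the log2 scale without control replicate 1.

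Tap1 and Psmb9 start from the shared promoter printed above, yet their spreads differed within MC38. The SD over MC38 libraries was 6.27 CPM at a mean of 113 CPM for Tap1 and 25.8 CPM at a mean of 153 CPM for Psmb9. Over the 2 controls it was 18.4 CPM at a mean of 123 CPM for Tap1 and 21.2 CPM at 192 CPM for Psmb9. Relative to its mean, Tap1 did not have the smaller spread there. Exons of the pair overlap by 212 bases on opposite strands in GENCODE M21, and the strand setting of the counting is not given, so reads from that stretch cannot be assigned to one of them. Erap1 overlaps Cast by 834 bases on the opposite strand, Tapbp overlaps Zbtb22 and another gene by 1053 bases, Tap2 overlaps 2 other genes by 698 bases, and Psmb8 overlaps 1 by 498 bases.

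The chaperones and the peptidase completed the pattern. Tapbp (ENSMUSG00000024308, chr17:33915899-33929292), tapasin, which bridges the transporter and class I molecules, was at 133, 159, 175 and 144 CPM in MC38 libraries and 186 and 153 CPM in controls, and the groups overlapped (edgeR adjusted p = 0.657). Tapbpl (ENSMUSG00000038213, chr6:125223933-125231860), a tapasin-related peptide editor, was at 158, 160, 89.3 and 116 CPM in MC38 libraries and 209 and 146 CPM in controls. Its spread was the widest of the members relative to its mean in both groups, 131 ± 34.1 CPM in MC38 and 177 ± 44.7 CPM in control (SD, n = 4 and 2). The fold of Tapbpl was 0.737 with a 95% interval of 0.509 to 1.07 (edgeR adjusted p = 0.378).

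Erap1 (ENSMUSG00000021583, chr13:74639568-74693201), which trims peptides to the length class I molecules hold, had 22.9, 30.3, 33.4 and 28.6 CPM in MC38 libraries and 30.5 and 34.6 CPM in controls. MC38 library 3 lay between the controls and the other MC38 libraries lay below both. The fold of Erap1 was 0.885 with a 95% interval of 0.635 to 1.23 (edgeR adjusted p = 0.725). The member counts behind these values ran from 340 to 6662 per library.

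**Figure D2:**
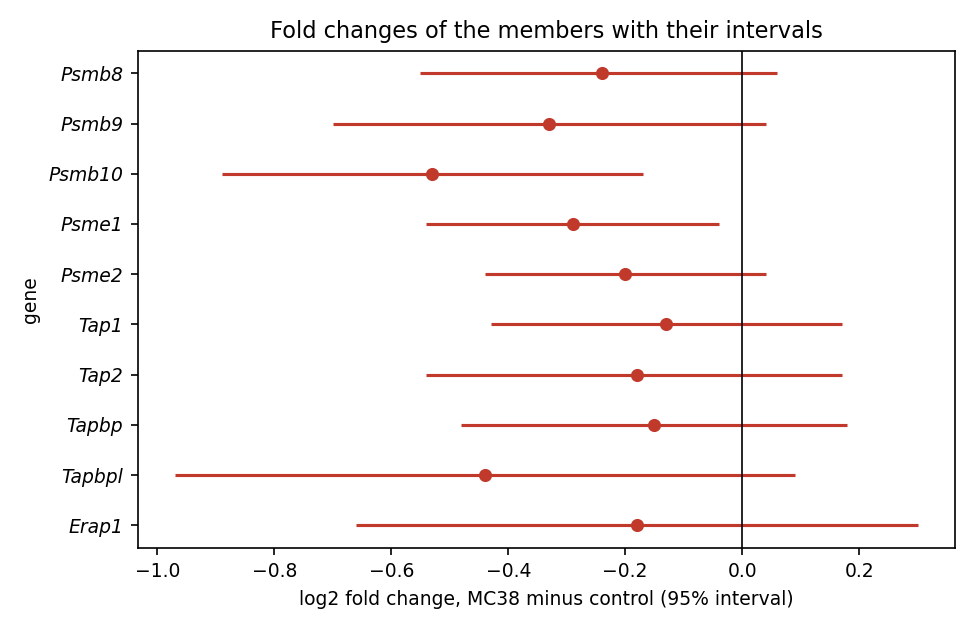
Log2 fold change of each member for MC38 minus control, with points for the edgeR estimate and lines for its 95% interval. All 10 points lie below 0, and the intervals of Psmb10 and Psme1 do not reach 0.

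The members' high and low libraries were counted next, with no test of whether they vary together. Control 1 was the highest of the 6 libraries for 8 of 10 members, all but Psme2 and Erap1, against 21.6% of all tested genes. MC38 library 3 was the lowest of the 4 MC38 libraries for 6 members, against 33.5% of genes, and the highest of the 4 for 2, Tapbp and Erap1, against 30.1%. The mean z-score of the members was -0.07, 0.01, -0.79 and -0.77 in MC38 libraries 1 to 4 and 1.21 and 0.41 in controls 1 and 2. The members were thus spread within MC38 too, with libraries 1 and 2 nearer to control 2 than libraries 3 and 4. The 5 genes outside the lists whose log2 CPM followed this score most closely over the 6 libraries were Cbln3 (Pearson r 0.997), Eif5a (0.996), H2afx (0.993), Cryzl2 (0.993) and Cd63 (0.991). They were picked from 9176 genes with a mean of at least 10 CPM, of which 414 exceeded 0.9, and the points share their libraries and scaling.

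To set levels of different genes beside each other, CPM were divided by the length in kb of the longest principal transcript in GENCODE M21. Psme1 ranked first with 278 ± 19.1 CPM per kb in MC38 and 341 ± 13.5 in control, before Psme2 with 255 ± 11.2 and 294 ± 10.9 and Psmb8 with 241 ± 30.2 and 285 ± 19.6 (SD, n = 4 and 2). The ranges of these 3 over the 6 libraries overlapped between neighbours, and Psmb8 stood clear of Psmb9, at 113 ± 19.1 CPM per kb in MC38 and 142 ± 15.7 in control. Psmb10 (95.8 ± 12.6 and 138 ± 27.9), Tapbpl (55.6 ± 14.5 and 75.4 ± 19), Tapbp (52.7 ± 6.34 and 58.4 ± 8.05), Tap2 (44.5 ± 7.02 and 50.5 ± 6.11) and Tap1 (38.1 ± 2.12 and 41.7 ± 6.24) followed, each overlapping its neighbour. Erap1 stood apart at 5.1 ± 0.783 CPM per kb in MC38 and 5.77 ± 0.512 in control. With the length of all annotated exons in place of the transcript, Psmb9 moved from rank 4 to rank 6 and the first 3 kept their places.

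The balance of inducible to constitutive subunits was taken within each library, where the scaling between libraries cancels. The Psmb8 to Psmb5 ratio of counts per kb was 1.49, 1.46, 1.24 and 1.53 in MC38 libraries and 1.41 in both controls. This ratio lay above 1 in all 6 libraries by transcript length, but by the length of all annotated exons, an alternative chosen after seeing the data, it was 0.596 to 0.735 in MC38 libraries and 0.68 in both controls, so which of the pair was higher depends on the length used. The Psmb9 to Psmb6 ratio was 0.246, 0.223, 0.182 and 0.218 in MC38 libraries and 0.22 and 0.235 in controls, below 1 in every library by either length. The Psmb10 to Psmb7 ratio was 1.92, 1.81, 1.38 and 1.66 in MC38 libraries and 1.95 and 1.47 in controls, and by exon length it was 3.12 to 4.36 in MC38 libraries and 4.42 and 3.34 in controls.

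None of these ratios separated the groups. A gene has the same length in every library, so the choice of length cannot change the differences between groups. The differences in mean log2 ratio, MC38 minus control, were 0.01 for Psmb8 to Psmb5 (exact permutation p = 1.0), -0.08 for Psmb9 to Psmb6 (exact permutation p = 0.733) and -0.01 for Psmb10 to Psmb7 (exact permutation p = 0.933). The tests were two-sided over 15 arrangements of the 6 libraries, which cannot give a p below 0.0667, and the adjusted p over the 4 ratios was 1.0 for each. The SDs of the log2 ratio over MC38 libraries were 0.14, 0.18 and 0.21.

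PA28 was compared with Psme3, which encodes the nuclear activator PA28 gamma. The summed Psme1 and Psme2 level per kb was 14.3, 14.4, 20.6 and 20.1 times that of Psme3 in MC38 libraries and 19 and 19.5 times in controls (exact permutation p = 0.467 for the log2 ratio). By exon length the multiples were 8.27 to 12.0 in MC38 libraries and 11 and 11.3 in controls, with the same p by exact permutation, 0.467. MC38 libraries 1 and 2 lay below the controls and libraries 3 and 4 above, while the denominator Psme3 was at 105, 102, 65.0 and 68.8 CPM in MC38 libraries and 89.1 and 86.3 CPM in controls.

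**Figure D3:**
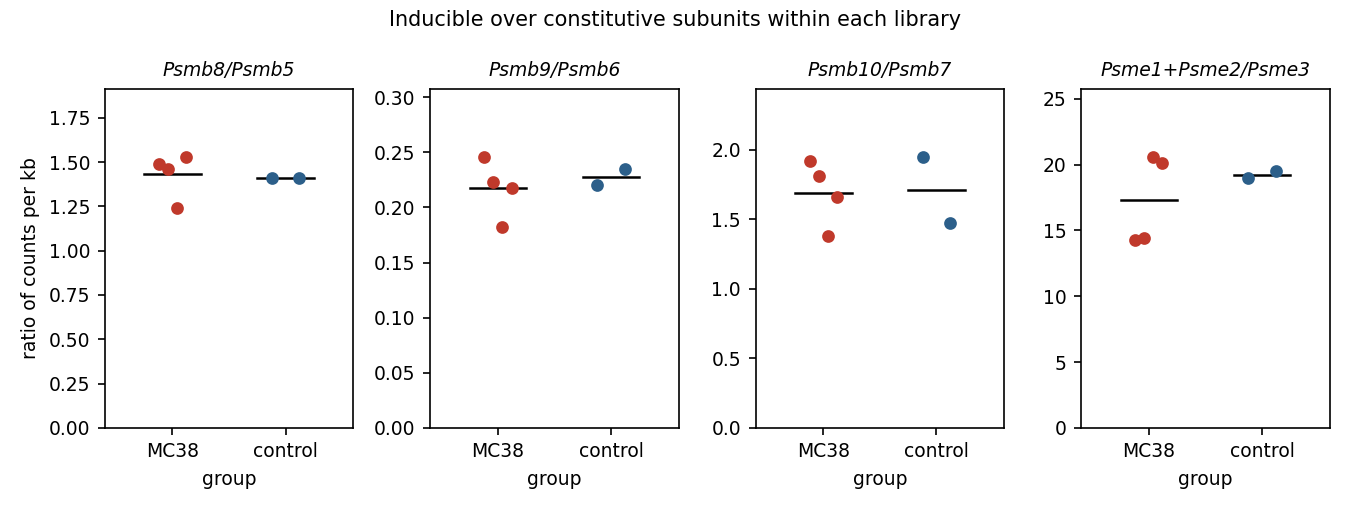
Ratio of counts per kb of transcript of the inducible to the constitutive subunit, and of PA28 alpha plus beta to PA28 gamma, in each library, with a line at the group mean and each axis starting at 0. MC38 and control points overlap in all 4 panels.

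Most genes of the constitutive proteasome also had a negative fold change, and whether they differed from the members was not tested. Psmb5, Psmb6 and Psmb7 had log2 fold changes of -0.26, -0.27 and -0.51, and none was called (edgeR adjusted p = 0.314, 0.3 and 0.0875). Psmb7, the constitutive counterpart of Psmb10, was at 66.8, 63.7, 68.0 and 64.6 CPM in MC38 libraries and 94.1 and 93.4 CPM in controls, a separation wider than the spread within either group. DESeq2 called Psmb7 lower (adjusted p = 0.0152).

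Of the 11 other subunits of the 20S core, 0 were called and 8 had a negative fold change (median log2 fold change -0.11; 7 to 11 negative over the alternatives). The 3 of smallest p were Psma7 (fold 0.805, edgeR adjusted p = 0.15, DESeq2 0.0324), Psmb4 (0.782, adjusted p 0.189) and Psmb1 (0.769, adjusted p 0.249). Of the 18 genes of the 19S particle, which recognises ubiquitinated proteins and unfolds them, 1 was called lower and 17 had a negative fold change (median -0.28). Psmc5, an ATPase of the 19S base, fell to 75.1, 87.2, 69.9 and 77.0 CPM in MC38 libraries, against 135 and 119 CPM in controls, with a log2 fold change of -0.71 (SE 0.14) and an edgeR adjusted p of 0.0403. Its call was lost without either control or without MC38 replicate 2 or 4, with adjusted p up to 0.272.

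Psmd2, a scaffold subunit of the 19S base, had a fold of 0.573 and did not pass (edgeR adjusted p = 0.0704), nor did Psmd3 (0.736, adjusted p 0.147) or the deubiquitinase Psmd14 (0.671, adjusted p 0.23). Psmd2 passed in 5 of 16 alternatives, among them DESeq2 (adjusted p = 0.00615) and the fits with 7 columns. Psmd3 passed in 1, with all 7 columns (adjusted p = 0.0324), and Psmd14 in 1, with the replicate block on 6 libraries (adjusted p = 0.0251). In all, 28 of 32 constitutive 26S genes had a negative fold change, with a median of -0.26 where the 10 members had -0.22. Over the 16 alternatives 26 to 32 of the 32 were negative. Among 11 measured assembly factors and other activators, 0 were called and 10 were negative. Of these the 19S chaperone Psmd5 had a fold of 0.691 (edgeR adjusted p = 0.159), and the core assembly chaperones Psmg3 and Psmg2 had folds of 0.779 and 0.815 (adjusted p 0.372 and 0.37). Psmd5 passed with all 7 columns (adjusted p = 0.039).

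**Figure D4:**
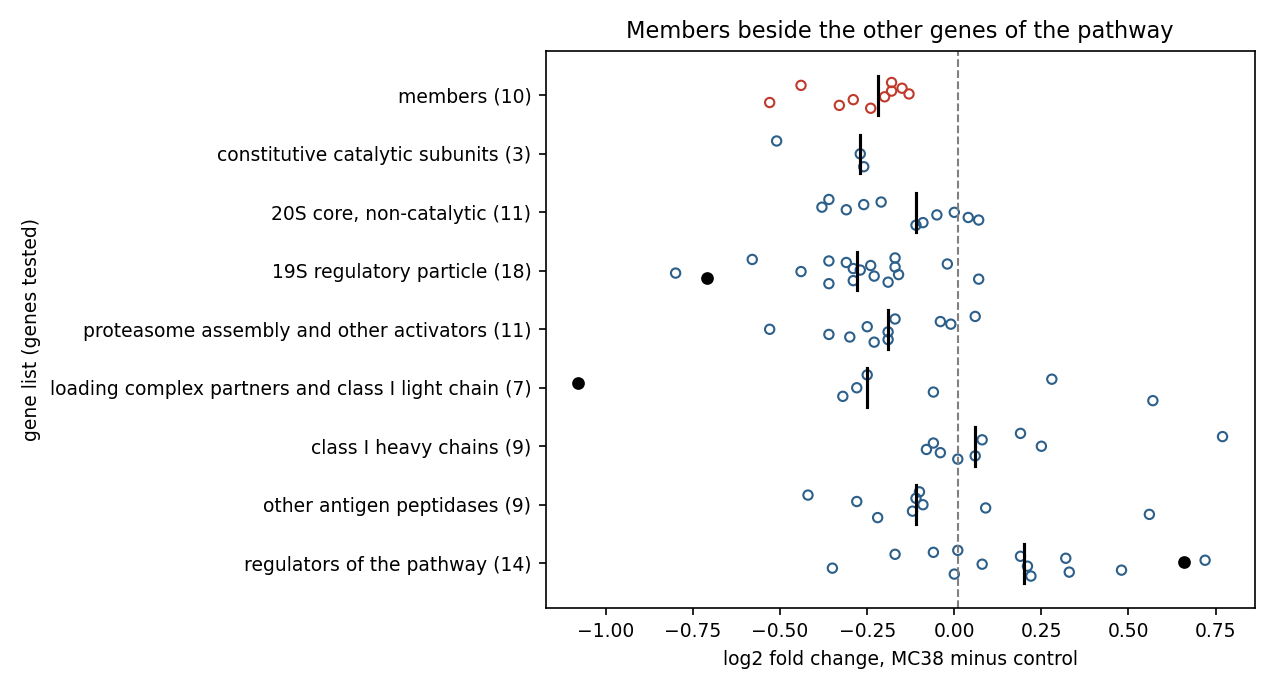
Log2 fold change for MC38 minus control of each gene in the member list (red) and 8 other lists of the pathway (blue), with filled points for genes called at an edgeR adjusted p under 0.05, a bar at each list's median and a dashed line at the median of all tested genes, 0.01. The 10 members lie in the range of the constitutive lists, while 11 of the 14 regulators are positive, among them Irf1 at 0.00, which turned negative in 2 alternatives.

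Of 7 genes listed as partners in peptide loading and the class I light chain, 1 was called. It encodes a general chaperone and not a subunit of the loading complex. Hspa5, the main chaperone of the endoplasmic reticulum, fell to 863, 858, 1008 and 1015 CPM in MC38 libraries, against 1972 and 1974 CPM in controls, with a log2 fold change of -1.08 (SE 0.11) and an edgeR adjusted p of 0.00117, and it was called in all 16 alternatives. Calr, calreticulin, which holds class I molecules during loading, had a fold of 0.803 (edgeR adjusted p = 0.181, and 0.037 with all 7 columns), and Bcap31, an export receptor, had 0.84 (adjusted p 0.3).

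B2m, the light chain that every loaded class I molecule carries, differed in direction from the members. It was at 3038, 3310, 4329 and 4023 CPM in MC38 libraries and 2614 and 2342 CPM in controls, so all MC38 libraries were above both controls. The log2 fold change of B2m was 0.57 (SE 0.15, 95% interval 0.22 to 0.92), which did not pass in edgeR (adjusted p = 0.102). B2m passed in 4 of 16 alternatives, among them DESeq2 (adjusted p = 0.00593) and edgeR with all 7 columns (adjusted p = 0.0213). Class I heavy chains had 0 of 9 called in edgeR, with 1 at an unadjusted p under 0.05, and a median log2 fold change of 0.06. H2-M3, which presents formylated peptides, had a fold of 1.71 (edgeR adjusted p = 0.151, and 0.0387 with all 7 columns), H2-Q7 had 1.19 (adjusted p 0.311) and Cd1d1, a lipid-presenting relative, had 1.14 (adjusted p 0.626).

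The regulators that act upstream of the members gave 1 call among 14. Ifngr1, the ligand-binding chain of the interferon gamma receptor, was called higher with a fold of 1.58 (95% interval 1.29 to 1.93, edgeR adjusted p = 0.0405), and lost its call in 5 of 16 alternatives, with adjusted p up to 0.22. Ifngr2 had a fold of 1.65 (adjusted p 0.348). Irf8, a myeloid interferon regulatory factor, was at 124, 101, 102 and 102 CPM in MC38 libraries and 81.0 and 73.5 CPM in controls (edgeR adjusted p = 0.138, DESeq2 0.0455).

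Neither Nlrc5 nor Irf1, which act on promoters of class I pathway genes, was called. Nlrc5, a transactivator of class I genes, was at 38.7 ± 5.48 CPM in MC38 and 33.3 ± 4.77 CPM in control (SD, n = 4 and 2; edgeR adjusted p = 0.644). Irf1, which binds interferon response elements, was at 135 ± 4.25 CPM in MC38 and 135 ± 8.75 CPM in control (SD, n = 4 and 2; edgeR adjusted p = 0.994). The regulators had a median log2 fold change of 0.2 (0.08 to 0.24 over the alternatives), where the members had -0.22.

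Markers of other cell types were summed in the same libraries. B cell markers summed to 185 to 233 CPM in MC38 libraries and 151 and 152 CPM in controls, with 8 of 8 detected and 0 called. Dendritic cell and macrophage markers summed to 210 to 238 CPM in MC38 libraries and 150 and 177 CPM in controls. All 12 were detected and 2 were called higher, while 7 had a positive and 5 a negative log2 fold change. The summed T and NK cell markers overlapped between the groups (403 to 449 CPM in MC38, 422 and 488 CPM in control, 10 of 10 detected), but 1 gene, with a mean of 383 CPM, carried most of that sum. Of the 10, 8 had a positive log2 fold change (median 0.96), 4 had an unadjusted edgeR p under 0.05, all higher in MC38, and 0 were called. Erythroid markers (128 to 131 CPM in MC38, 135 and 192 CPM in control, 6 of 6 detected) and megakaryocyte markers (247 to 290 CPM in MC38, 318 and 342 CPM in control, 4 of 4 detected) summed lower in every MC38 library. In each of these lists 0 genes were called. The log2 fold change was negative for 5 and positive for 1 of the erythroid markers, and negative for 3 and positive for 1 of the megakaryocyte markers. No marker list had a gene at 0 in all 6 libraries, and the part of these cell types, the neutrophil transcripts above all, in the values of the members was not tested.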

How the data were processed

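The labels describe RNA sequencing of sorted bone marrow HSCs in 7 libraries amplified with 12 PCR cycles, though how control column 3 was made is not known. The authors deposited whole-number read counts per Ensembl gene, and the tools named are STAR 2.6.1, HTSeq 0.10.0 and Trim Galore 0.5.0, with the build mm10, per the submitters' processing notes. The sources used here do not give the annotation release or the strand setting, and no molecular identifiers are named, so PCR copies count as reads. GENCODE M21 (GRCm38, the assembly of mm10) gave symbols for 27728 of 28786 genes, positions and lengths.

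MC38 (4 libraries) was compared with control (2 libraries) in edgeR 4.0.16 under R 4.3.3, across all genes: filterByExpr, TMM, robust quasi-likelihood test, two-sided, Benjamini-Hochberg adjustment, threshold 0.05, no replicate block. Intervals are the estimate plus and minus its SE times the t quantile of the fit. Column 3 of control was left out as not independent. Fits with all 7 columns count it as a further control, so their p-values are likely too small. The alternatives were other scalings, DESeq2 1.42.0, limma-voom (limma 3.58.1), other filters, all 7 columns, a replicate block, and each library left out in turn. The code was tested on simulated data with changes larger than those of the members, which does not show its power for the members. Ratios used counts per kb and exact permutation over libraries. The members and lists were chosen with earlier results of these data known. Named were all members, every called gene of the other lists and, besides, the 3 of smallest p in each, the constitutive counterparts, and Nlrc5 and Irf1; 1 further gene of that rule is not reported here. H2afx and the other genes of similar pattern followed a rule of highest correlation. Of 89 listed pathway genes 88 were in the table.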

Additional observations from a re-analysis of the deposited data

Results flagged for a closer look

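Of 47 values examined, 43 gene levels and 4 ratios, 2 had an MC38 library standing far from the other 3, where about 1 in 20 would be flagged by chance. Irf8 was at 124 CPM in MC38 library 1, above the 3 others, which lay within 101 to 102 CPM. Ifngr1 was at 144 CPM in MC38 library 2, below the others, at 171 to 174 CPM. No member was among them.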

How the results depend on the processing

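No alternative called a member higher, and 1 called a member lower: with all 7 columns the count was 1, Psmb10. All 10 members stayed negative in 15 of 16 alternatives, and their median log2 fold change ran from -0.30 to -0.15, while the median of all genes ran from -0.02 to 0.06. Tap1 ran from -0.27 to 0.03 on leaving out single libraries, with 0.03 without control replicate 1. In that fit Tapbp at -0.0011 and Tap2 at -0.05 were also near no change. The remaining members ran from -0.31 (Psmb10) to -0.16 (Tapbpl) there. Psme3 ran from -0.16 to 0.07, with 0.07 without MC38 replicate 3, 0.05 without MC38 replicate 4, and 0.24 (6 libraries) and 0.03 (7 columns) with the replicate block. Irf1 ran from -0.06 to 0.07, with -0.01 without MC38 replicate 2 and -0.06 without control replicate 2. The cause was not tested.

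Counts over all genes, 148 higher and 81 lower, depended on the setting: 626 and 396 with DESeq2, 791 and 663 with all 7 columns, 302 and 202 without a filter, and 90 higher with limma-voom. Leaving out single libraries gave 44 to 259 higher and 16 to 183 lower. Among the other pathway genes, 1 higher and 2 lower, the counts were 3 and 5 with DESeq2, 4 and 8 with all 7 columns, 0 higher with limma-voom and 2 higher without a filter, and 0 to 2 higher and 1 to 3 lower without single libraries. A control group of 1 library was assumed to vary like the MC38 libraries. The 4 ratio differences stayed within 1 SD of their values. The difference for Psmb10 to Psmb7 was nonetheless 0.19 without control replicate 1 and -0.21 without control replicate 2, so its sign depended on which control was kept. Exon length, added after seeing the data, cannot change the differences for ratios of single genes. It left that of Psme1 plus Psme2 to Psme3 at -0.17.

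The replicate numbers are not said to pair libraries, and deviations of same-numbered libraries correlated at 0.0606 and -0.0173 over 14226 genes. The replicate block gave 269 higher and 190 lower genes with 6 libraries and 341 and 217 with 7 columns, and called no member. With 2 control libraries, a small change of a member may be missed. The unadjusted intervals are no detection limit. Those of Psmb10 and Psme1 lay wholly below no change, yet neither gene was called in edgeR on the 6 libraries.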

Other observations

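Peptidases of the cytosol and endoplasmic reticulum other than Erap1 were not called in edgeR (0 of 9; 1 at an unadjusted p under 0.05, 0 with DESeq2 and 0 with limma-voom). Rnpep, an aminopeptidase, had a fold of 0.745 (edgeR adjusted p = 0.282), Tpp2, which shortens long proteasome products, had 1.47 (adjusted p 0.364), and Lap3, an interferon-inducible aminopeptidase, had 0.822 (adjusted p 0.536). Tpp2 was at 31.1, 42.6, 68.3 and 55.1 CPM in MC38 libraries and 36.5 and 30.4 CPM in controls, so that MC38 library 1 lay between the controls and the others above both.

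Of 6 genes of interferon-induced ubiquitin-like modification, 0 were called in edgeR, DESeq2 or limma-voom and 0 had an unadjusted edgeR p under 0.05. Herc6, an ISG15 ligase in the mouse, had a fold of 1.67 (edgeR adjusted p = 0.38), and Ube2l6, the ISG15 conjugating enzyme, had 0.826 (adjusted p 0.385). Ubd, the proteasome-targeting modifier FAT10, had 0, 12, 0 and 11 counts in MC38 libraries 1 to 4 and 0 in controls 1 and 2, too few for a fold.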
